A study of Homo sapiens with 6 samples.

Results

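The genes described here are 10 enzymes of fatty acid synthesis and desaturation, measured by RNA-seq in PANC-1 cells, an established line of pancreatic ductal adenocarcinoma. They were chosen by gene name among the 58735 genes of the deposited table, and SCD was selected on its measured count, since it is among the most counted nuclear genes of these cells. The control group (si-NC, n = 3) received a control siRNA and the silenced group (si-METTL16, n = 3) an siRNA against METTL16, an RNA methyltransferase. All 6 samples were cells of the same line in the same serum-containing medium, all of them transfected, although a further label calls the control samples wild type. The methods describe biological triplicates and stable transfection, and the period between transfection and harvest is not given in the sources used here. The comparison asks how the transcripts of fatty acid synthesis differed between silenced and control cells.

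Counts per sample summed to between 15725298 and 18054436, so that 3 counts correspond to between 0.166 and 0.191 units of the library-size-scaled count (CPM). METTL16 itself fell from 96.3 ± 4.58 to 34.5 ± 0.571 CPM (SD, n = 3 per group), with no overlap between the groups. The summed level of 6 ductal markers lay between 3055 and 4137 CPM in control and between 3219 and 3550 CPM in silenced samples, and 3 of the 6 (KRT7, KRT19 and SOX9) were lower in silenced cells, beside 17.5% of all tested genes. Their log2 fold changes were -0.84 for KRT7, -1.40 for KRT19 and -0.25 for SOX9. The others were not called, with log2 fold changes of -0.23 for KRT8, 0.20 for KRT18 and 0.44 for EPCAM. KRT8 and KRT18 made up most of the summed level. The 4 adipocyte markers summed to between 0 and 0.178 CPM in control and between 0.445 and 0.665 CPM in silenced samples, with the defining genes ADIPOQ and FABP4 at 0 counts throughout. The higher sum came from PLIN1, a lipid droplet coat gene, with 0 to 2 counts in control and 7 to 12 in silenced samples. The 3 hepatocyte markers summed to 0 CPM in control and to at most 0.382 CPM in silenced samples, with ALB at 0 counts throughout, and the 5 acinar markers to at most 0.296 CPM in any sample. The 3 leukocyte markers summed to between 5.71 and 5.87 CPM in control and between 7.75 and 9.31 CPM in silenced samples, nearly all of it CD68, which many cell types hold at a low level, while CD3E was at 0 counts and PTPRC at most at 5. The part of these markers in the results was not tested. In such bulk samples, a lower share of cells with a transcript and less of it per cell cannot be told apart.

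Cells build fatty acids from citrate that leaves the mitochondrion. ACLY splits citrate into acetyl-CoA, the acetyl-CoA carboxylases ACACA and ACACB turn it into malonyl-CoA, and the multienzyme FASN condenses these units into palmitate. ELOVL6 lengthens palmitate to stearate, SCD and its paralog SCD5 place the first double bond into such saturated chains, and FADS1, FADS2 and ELOVL5 desaturate and lengthen polyunsaturated chains. Several of these genes, SCD and FASN among them, are known targets of the transcription factor SREBP-1 (gene SREBF1), which INSIG proteins hold back in the endoplasmic reticulum.

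The promoters of both desaturase genes and both carboxylase genes are printed first, because in each pair the paralogs moved in opposite directions. RefSeq windows were found for 9 of the 10 genes (all but FASN), and the 250 bases directly before the RefSeq start are shown 5′ to 3′ on the strand of the gene, in GRCh38.p14. Capitals mark CCAAT (the letters bound by NF-Y), GGGCGG (bound by Sp1 factors), CACGTG (an E-box) and TCACNCCAC (letters of a sterol regulatory element), each searched on both strands, so that a match on the other strand shows as the reverse complement. The SCD window lies at chr10:100346983-100347232 (plus strand), SCD5 at chr4:82798797-82799046 (minus strand), ACACA at chr17:37406837-37407086 (minus strand) and ACACB at chr12:109116337-109116586 (plus strand). The deposited table starts SCD and SCD5 slightly further upstream than RefSeq, within these windows. Of the windows not printed, those of ACLY, ELOVL6, FADS1 and FADS2 lie wholly downstream of the start in the deposited table. ACLY starts there at 41930542, with its window at 41919023 to 41919272, and FADS2 at 61792980, with its window at 61815953 to 61816202. The motif counts therefore describe RefSeq starts only.
SCD: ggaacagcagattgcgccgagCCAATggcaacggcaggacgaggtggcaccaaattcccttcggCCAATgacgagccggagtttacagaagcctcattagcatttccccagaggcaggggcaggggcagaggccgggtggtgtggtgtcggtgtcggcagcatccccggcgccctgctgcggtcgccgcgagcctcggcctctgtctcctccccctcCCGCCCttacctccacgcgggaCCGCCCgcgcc
SCD5: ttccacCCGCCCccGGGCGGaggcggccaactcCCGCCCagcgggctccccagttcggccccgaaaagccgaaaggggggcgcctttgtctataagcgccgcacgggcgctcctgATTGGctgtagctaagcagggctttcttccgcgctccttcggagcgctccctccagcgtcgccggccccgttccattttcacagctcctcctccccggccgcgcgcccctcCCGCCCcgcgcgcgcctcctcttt
ACACA: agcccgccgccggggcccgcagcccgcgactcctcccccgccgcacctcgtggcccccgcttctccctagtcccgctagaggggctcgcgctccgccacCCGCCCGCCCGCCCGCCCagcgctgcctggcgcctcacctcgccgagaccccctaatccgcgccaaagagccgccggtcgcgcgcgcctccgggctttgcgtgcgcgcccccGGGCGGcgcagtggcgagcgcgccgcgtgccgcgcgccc
ACACB: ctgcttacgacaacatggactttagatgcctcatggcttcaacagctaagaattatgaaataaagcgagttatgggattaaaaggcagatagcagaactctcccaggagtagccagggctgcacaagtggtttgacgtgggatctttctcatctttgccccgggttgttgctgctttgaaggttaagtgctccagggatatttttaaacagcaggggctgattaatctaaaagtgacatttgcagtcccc

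In the SCD window, the letters CCAAT occurred at 2 places, 182 to 186 and 225 to 229 bases before the start, and at 1 place in that of SCD5, 131 to 135 bases before it. The ACACA window held no CCAAT but 5 GGGCGG matches, 4 of which overlap each other in a single run. None of the 4 motifs occurred in the ACACB window. Among the 9 windows, CCAAT was found in 4, against 32.0% of all 35116 windows of this length. GGGCGG was in 6, against 42.6%, and CACGTG was in 1, that of ELOVL5, against 6.34%. TCACNCCAC was in none of them, against 0.883%. These matches describe letters and not bound sites.

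After silencing of METTL16, SCD, ACACB, ELOVL6 and ACLY were lower and SCD5, ACACA and ELOVL5 were higher, while FASN, FADS1 and FADS2 did not pass the test. All 10 genes passed the filter on low counts and were tested among 15089 genes with edgeR's quasi-likelihood test, where a gene was called at a Benjamini-Hochberg adjusted p under 0.05. Thus 7 of the 10 were called, beside 35.9% of all tested genes. Of them, 3 were higher, against a background of 18.4%, and 4 lower, against 17.5%. The same 7 genes had no overlap between the groups, as did 50.9% of all tested genes. The median log2 fold change of the 10 was -0.05, beside -0.0045 over all tested genes. Fold changes are of silenced over control cells throughout. Without si-NC replicate 3, calls remained for 4 genes (SCD, SCD5, ACACA and ELOVL6).

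**Figure D1:**
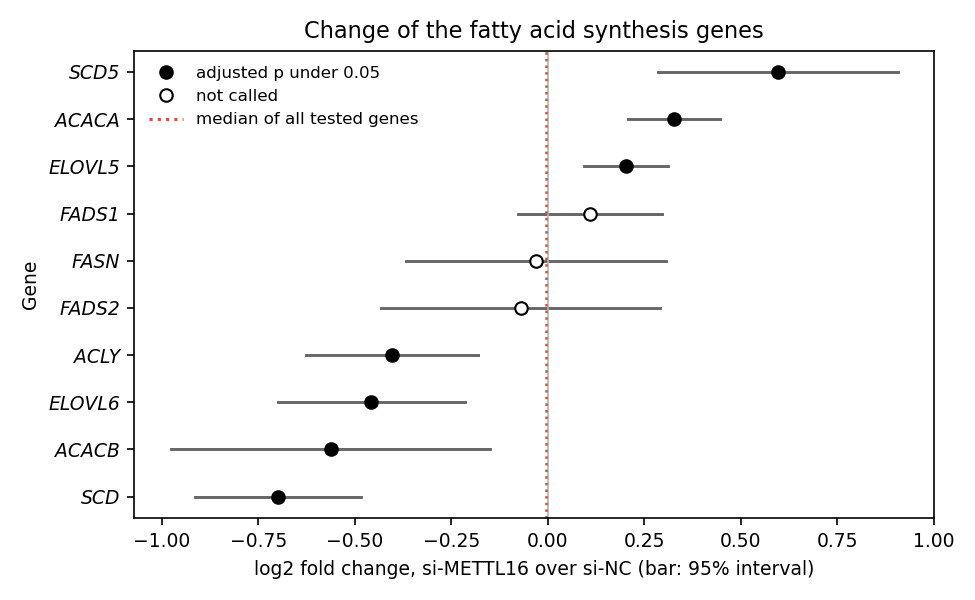
Log2 fold change (x axis, si-METTL16 over si-NC) of each of the 10 genes (y axis), with bars for the 95% interval from edgeR. Filled points passed an adjusted p of 0.05, open points did not, and the dotted line is the median of all tested genes. SCD lies lowest at -0.70 and SCD5 highest at 0.60, and the bars of FASN, FADS1 and FADS2 cross 0.

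SCD (ENSG00000099194) lies on chromosome 10 from 100347124 to 100364834 on the plus strand (GRCh38), with 6 exons in its reference transcript. It was the second most counted row among nuclear genes in each of the 6 samples. The row above it, EEF1A1P5, is a processed pseudogene whose reads can be shared with EEF1A1. In si-NC replicates 1, 2 and 3 SCD had 135402, 172901 and 168511 counts, which is 0.806%, 1.02% and 0.968% of all counts. In si-METTL16 replicates 1, 2 and 3 SCD had 88838, 88988 and 107932 counts, or 0.534%, 0.566% and 0.598%. As TMM-scaled CPM, these are 8013, 10188 and 9612 in control and 5414, 5706 and 6005 in silenced cells. Every silenced sample lay below every control sample. The spread was larger among the controls (coefficient of variation 12.2%) than among the silenced samples (5.17%). The log2 fold change of SCD was -0.70 (standard error, SE, 0.09, 95% interval -0.91 to -0.49, adjusted p = 0.00133), which leaves 61.6% of the control level. By unadjusted p, SCD ranked 1171 among the tested genes, and 79.7% of them had a smaller absolute change. The processed pseudogene SCDP1 held 158 counts over the 6 samples, against 762572 for SCD.

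SCD5 (ENSG00000145284; chromosome 4, 82629539 to 82798857, minus strand), the other stearoyl-CoA desaturase, was far less abundant. It had 141, 122 and 162 counts in the controls and 216, 191 and 217 in the silenced samples. In CPM the control samples had 8.34, 7.19 and 9.24 and the silenced samples 13.2, 12.2 and 12.1, again without overlap. SCD5 was thus 1.51-fold higher after silencing (log2 fold change 0.60, SE 0.13, adjusted p = 0.0117). Per length, the deposited FPKM of SCD exceeded that of SCD5 by 852-fold, 1258-fold and 923-fold in the si-NC samples. This ratio was 365, 414 and 441 in the si-METTL16 samples. With the length of the reference (MANE Select) transcripts, an alternative added after the data were seen, the ratio was between 557 and 821 in control and between 238 and 288 in silenced samples. The ranges of the ratio did not overlap between the groups, and a change of length, alike in all samples, could not alter that. They had to be apart, since SCD was lower and SCD5 higher without overlap, so the ratio is no further result. SCD remained by far the main transcript of this enzyme pair in silenced cells.

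The carboxylases also moved apart, here with the more abundant paralog higher. ACACA (ENSG00000278540; chromosome 17, 37084988 to 37406818, minus strand), the cytosolic enzyme that supplies malonyl-CoA for synthesis, had 155, 158 and 161 CPM in control and 195, 200 and 199.7 CPM in silenced samples. Its replicates were tight, with coefficients of variation of 2.12% and 1.56%, and its log2 fold change of 0.33 (SE 0.05, adjusted p = 0.00268) corresponds to a 1.25-fold higher level. ACACB (ENSG00000076555; chromosome 12, 109116595 to 109268226, plus strand), the form at the mitochondrial surface whose product restrains fatty acid oxidation, had 10.5, 10.3 and 8.96 CPM in control samples. In the silenced samples it had 7.74, 7.18 and 5.23 CPM, from counts of 127, 112 and 94. The log2 fold change of ACACB was -0.56 (SE 0.18, adjusted p = 0.0425), and of 6 fits with 5 samples each it was called in 1, that without si-METTL16 replicate 1. In the remaining 5 its adjusted p was between 0.0633 and 0.108. The deposited FPKM of ACACA exceeded that of ACACB by 13.0, 13.5 and 15.8 times in si-NC samples. In si-METTL16 samples it did so by 22.1, 24.5 and 33.6 times, ranges that did not overlap. This separation follows from the opposite shifts of both genes without overlap and is no further result. ACACB overlaps the gene UNG on the same strand and shares 0 exon bases with it in GENCODE v44. The annotation used for counting is not given. UNG held 6695 counts over the 6 samples, against 842 for ACACB, and rose by 1.18 on the log2 scale. The part of UNG in the counts of ACACB was not tested.

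**Figure D2:**
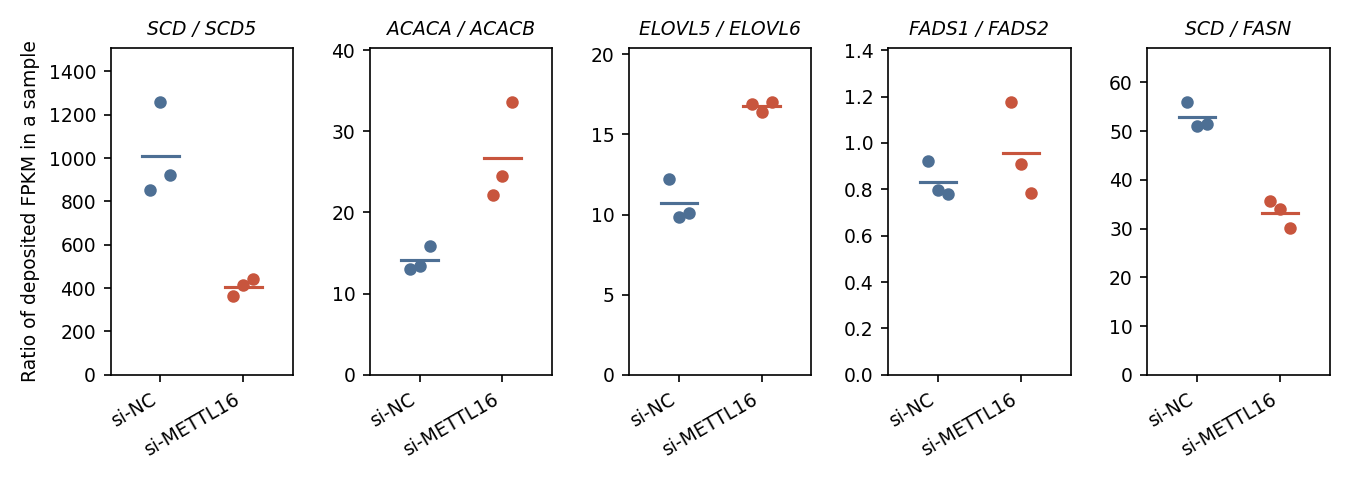
Ratio of the deposited FPKM of paired genes within each sample (y axis, from 0), for si-NC and si-METTL16 samples (points) with the group mean (line). SCD over SCD5 and SCD over FASN are lower in all 3 silenced samples, and FADS1 over FADS2 overlaps. ACACA over ACACB and ELOVL5 over ELOVL6 are higher in all 3 silenced samples. For SCD over SCD5, ACACA over ACACB and ELOVL5 over ELOVL6, the separation follows from the opposite, non-overlapping shifts of the single genes.

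ACLY (ENSG00000131473; chromosome 17, 41866908 to 41930542, minus strand), a source of cytosolic acetyl-CoA, was lower after silencing. It had 264, 329 and 312 CPM in control and 210, 234 and 239 CPM in silenced samples, and the groups did not overlap. The log2 fold change of -0.40 (SE 0.09, adjusted p = 0.0149) leaves 75.6% of the control level. The call of ACLY was lost without si-NC replicate 3 (adjusted p = 0.0529). FASN (ENSG00000169710; chromosome 17, 82078333 to 82098332, minus strand), which makes palmitate, was not called. Its values were 353, 491 and 460 CPM in control and 374, 413 and 490 CPM in silenced samples, so the ranges overlapped almost fully. Its log2 fold change was -0.03 with a 95% interval from -0.37 to 0.31 (adjusted p = 0.893). The interval thus holds both lower and higher levels, and with 3 replicates a change of FASN within it remains possible. The sign of the FASN estimate depended on the samples used. It ran from -0.17 without si-NC replicate 1 to 0.059 without si-NC replicate 2, and was also above 0 without si-NC replicate 3 or si-METTL16 replicate 1. SCD exceeded FASN in deposited FPKM by 55.9, 51.1 and 51.4 times in control and by 35.6, 34.0 and 30.2 times in silenced samples, without overlap. With the MANE lengths these ratios were between 33.5 and 36.7 and between 19.8 and 23.4.

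The elongases also moved apart. ELOVL6 (ENSG00000170522; chromosome 4, 110045846 to 110199199, minus strand), which acts on palmitate, had 63.9, 81.7 and 77.3 CPM in control and 53.1, 56.9 and 52.4 CPM in silenced samples. It fell by 0.46 on the log2 scale (SE 0.10, adjusted p = 0.0127), to 72.8% of control, and stayed called whichever sample was left out (largest adjusted p = 0.0456). ELOVL5 (ENSG00000012660; chromosome 6, 53267398 to 53349179, minus strand), which acts on polyunsaturated chains, had 456, 468 and 456 CPM in control and 523, 545 and 519.9 CPM in silenced samples. This is a small rise, 1.15-fold (log2 fold change 0.20, SE 0.05, adjusted p = 0.0138), that exceeded a narrow spread with coefficients of variation of 1.51% and 2.55%. The call of ELOVL5 was lost without si-NC replicate 3 (adjusted p = 0.0530). The FPKM ratio of ELOVL5 to ELOVL6 lay between 9.82 and 12.2 in control and between 16.4 and 17.0 in silenced samples. That these ranges are apart likewise follows from the opposite shifts of both genes without overlap. ELOVL6 shares 240 exon bases with a long noncoding RNA on the other strand, whose part in the counts was not tested.

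FADS1 (ENSG00000149485; chromosome 11, 61799625 to 61829318, minus strand) and FADS2 (ENSG00000134824; 61792980 to 61867354, plus strand), the desaturases of polyunsaturated chains, were not called. FADS1 had 284, 340 and 298 CPM in control and 338, 344 and 312 CPM in silenced samples (log2 fold change 0.11, 95% interval -0.08 to 0.30, adjusted p = 0.325). FADS2 had 289, 399 and 360 CPM in control and 269.7, 355 and 373 CPM in silenced samples. Its log2 fold change of -0.07 carried the widest interval of the uncalled genes, -0.43 to 0.29 (adjusted p = 0.748), and its sign changed when si-METTL16 replicate 1 or si-NC replicate 2 was left out. These overlapping genes share 490 exon bases in GENCODE v44, so reads there cannot be assigned with certainty if counting did not use strand. FADS2 also shares 49 exon bases with FEN1 on the same strand, a replication gene that rose by 1.03 on the log2 scale. The part of these shared bases in the counts was not tested.

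**Figure D3:**
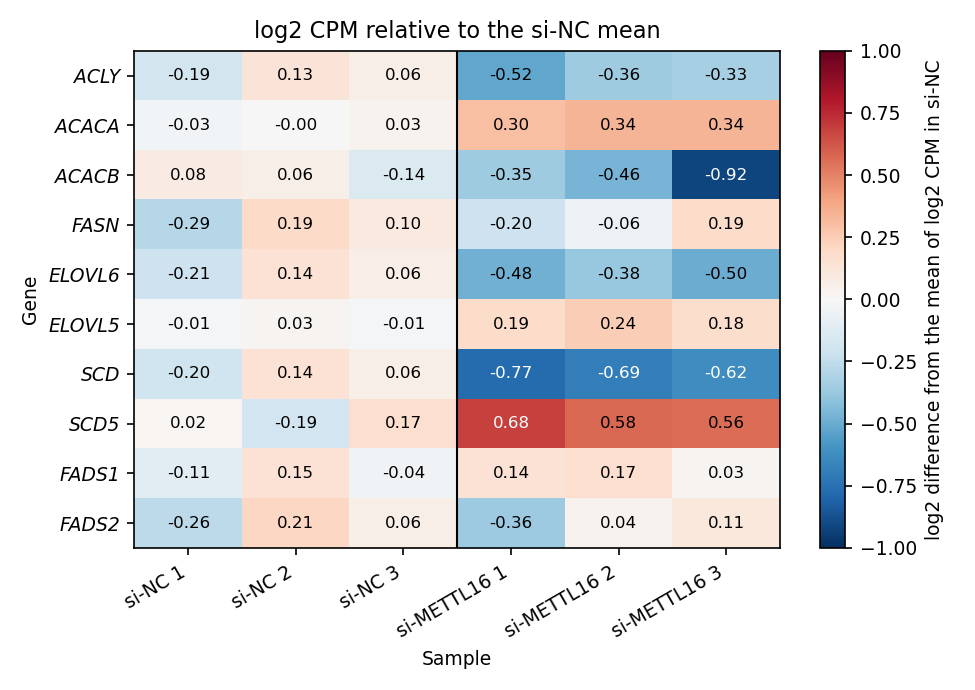
Log2 CPM of each gene (rows) in each sample (columns) relative to the mean of log2 CPM over the si-NC samples, with blue below and red above that mean. SCD is between -0.77 and -0.62 and SCD5 between 0.56 and 0.68 in the silenced samples, and si-NC replicate 1 is below replicates 2 and 3 for SCD, FASN, ACLY, ELOVL6, FADS1 and FADS2.

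Within the control group, several genes shared the order of the samples. For 6 of the 10 (SCD, FASN, ACLY, ELOVL6, FADS1 and FADS2), si-NC replicate 1 was the lowest and si-NC replicate 2 the highest sample, with coefficients of variation between 9.40% and 16.7%. ACACA and ELOVL5 varied far less, at 2.12% and 1.51%. Relative to the control mean, si-NC replicate 1 lay at -0.29 for FASN, -0.26 for FADS2, -0.21 for ELOVL6, -0.20 for SCD, -0.19 for ACLY and -0.11 for FADS1 on the log2 scale. Leaving this sample out moved the log2 fold change of SCD from -0.70 to -0.80, of ACLY to -0.50 and of ELOVL6 to -0.56. This order was singled out after the values were seen. How many of all tested genes have it was not counted, so it cannot be called particular to these genes. The cause of the deviation was not tested.

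By level per length, SCD stood apart from the rest. Its deposited FPKM was 1739 ± 212 in si-NC and 1055 ± 59.8 in si-METTL16 cells (SD, n = 3). ELOVL5 followed with 72.1 ± 1.07 and 81.8 ± 2.13. In control cells ACLY (33.3 ± 3.75) and FASN (33.1 ± 5.55) overlapped in FPKM, whereas in silenced cells FASN (32.0 ± 4.58) was above ACLY (24.8 ± 1.83) in all samples. FADS2 (22.9 ± 3.67 in control) and FADS1 (18.9 ± 1.77) overlapped in both groups. ACACA (6.94 ± 0.153) and ELOVL6 (6.80 ± 0.849) overlapped in control and not in silenced cells, at 8.58 ± 0.173 and 4.88 ± 0.218. SCD5 (1.75 ± 0.219) and ACACB (0.495 ± 0.0412) were lowest in both groups.

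**Figure D4:**
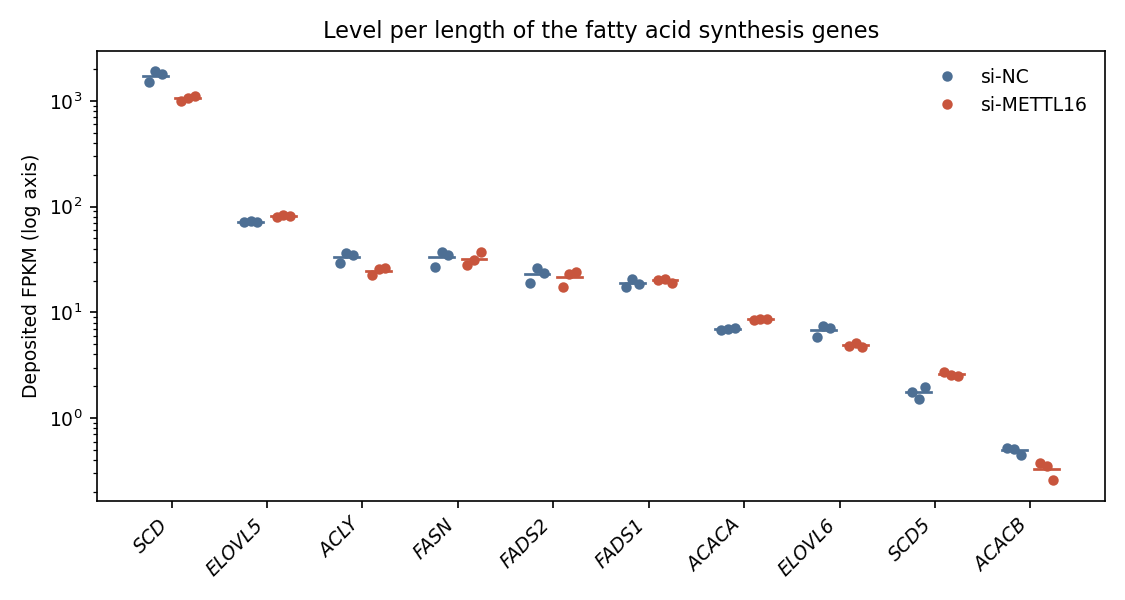
Deposited FPKM (y axis, log scale) of each gene in each sample (points), with the mean of the 3 samples (line), for si-NC and si-METTL16. SCD lies between 995 and 1911 in all samples, and the next gene, ELOVL5, between 71.5 and 84.2.

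These levels depend on the gene length behind the deposited FPKM. The length implied by count and FPKM was 5362 bases for SCD, close to the 5245 bases of its MANE Select transcript, the agreed reference transcript of a gene. For FADS2 it was 15351 bases against 3091 and for FADS1 16372 against 4364. With the MANE length, an alternative added after the data were seen, SCD stayed first at 1778 ± 217 in si-NC. ELOVL5 stayed next at 167 ± 2.47, and FADS2 (114 ± 18.2), FADS1 (70.8 ± 6.65) and ACLY (70.7 ± 7.95) then came before FASN (51.7 ± 8.65). Some neighbours also changed places in their overlap. With MANE lengths, ACACA (15.5 to 16.2) lay above ELOVL6 (9.78 to 12.5) in every control sample, FADS2 lay above FADS1 in every sample of both groups, and FASN (43.5 to 57.6) and ACLY (48.2 to 55.5) overlapped in silenced cells. Fold changes between groups are not affected, since the length of a gene is the same in all samples.

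The genes whose 6 values were most like those of SCD were named by the smallest root mean square difference of centred log2 CPM, among 10002 genes with a mean of at least 10 CPM. They were MTMR4 (0.0252), RTKN (0.0387), SLC25A30 (0.0444), PNKD (0.0452) and EFNA1 (0.0481), with log2 fold changes between -0.73 and -0.65. Fold changes near that of SCD follow from this choice, and shared regulation was not tested.

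Further genes of the pathway were taken from lists written from general knowledge, but with earlier results of these data known. Of 101 such genes, 91 were tested, and 13 were higher and 22 lower at an adjusted p under 0.05, which is 14.3% and 24.2% beside 18.4% and 17.5% of all tested genes. In the list of regulators, 1 of 15 tested genes was higher and 4 were lower, with a median log2 fold change of -0.21. INSIG1, which retains SREBP in the endoplasmic reticulum and is itself an SREBP target, was the gene that rose. It had 29.0, 37.3 and 39.0 CPM in control and 106, 53.0 and 128 CPM in silenced samples. All silenced samples exceeded all control samples, but si-METTL16 replicate 2 was far below the other silenced ones. The log2 fold change of INSIG1 was 1.45 (SE 0.31, adjusted p = 0.00976), and with any 5 of the samples it lay between 1.18 and 1.73. SREBF1 had 136, 146 and 145 CPM in control and 127, 113 and 129 CPM in silenced samples. These groups did not overlap either, but the log2 fold change of -0.21 (SE 0.07, adjusted p = 0.0520) missed the threshold.

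The proteases that release SREBP from its membrane, MBTPS1 and MBTPS2, were lower by 0.35 and 0.81 on the log2 scale (adjusted p = 0.0184 and 0.000576). The other regulators that fell were MLXIP and RXRA, by 0.32 and 0.28, and these 4 genes were singled out after their values were seen, as was IDH1, described next. For SCAP, the escort protein of SREBP, the log2 fold change was 0.09 (adjusted p = 0.404). The liver X receptors NR1H2 (-0.08, adjusted p = 0.614) and NR1H3 (0.28, adjusted p = 0.408) were not called. MLXIPL, which encodes the glucose-responsive factor ChREBP, was barely expressed, with 1.93 ± 0.235 CPM in control and 0.746 ± 0.426 CPM in silenced cells (log2 fold change -1.35, adjusted p = 0.0509).

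Among the 9 tested genes of carbon and NADPH supply, 1 was higher and 2 were lower (median -0.10). The counts of this and the following lists stand beside 18.4% higher and 17.5% lower among all tested genes. IDH1, the cytosolic NADPH-producing isocitrate dehydrogenase, fell by 0.77 on the log2 scale (adjusted p = 0.00103). CS, the mitochondrial citrate synthase, rose by 0.53 (adjusted p = 0.00518).

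Of 6 tested desaturase partners, which supply or share the electron transfer of desaturation, 1 was higher and 2 lower (median -0.40). The median includes the uncalled CYB5B (-0.72), with 144, 143 and 491 CPM in control and 143, 163 and 167 CPM in silenced samples. It thus depends in part on si-NC replicate 3. FADS3, a related desaturase, fell by 0.88 (adjusted p = 0.00132), and the reductase CYB5R4 rose by 0.59 (adjusted p = 0.000873). Of 9 tested elongation partners, 1 was higher and 3 lower (median -0.22). ELOVL7 rose by 0.87 and ELOVL2 fell by 0.49 (adjusted p = 0.00554 and 0.00288). Of 8 tested acyl-CoA synthetases and transporters, 1 was higher and 3 lower, with a median of -0.52. This median includes the weakly expressed ACSL5, SLC27A1, SLC27A3 and SLC27A5, with control means of at most 7.84 CPM. ACSL4 had the highest called value at 0.34 and SLC27A1 the lowest at -0.88 (adjusted p = 0.0342 and 0.0181), and each was called in 2 of the 6 fits on 5 samples. The SLC27A1 call was also lost with the replicate number as a block (adjusted p = 0.0546).

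Of 16 tested glycerolipid and lipid droplet genes, 4 were higher and 3 lower (median -0.02). These shares, 25% and 18.8%, stood beside 18.4% and 17.5% of all tested genes. SOAT1, which esterifies cholesterol, rose by 0.59 (adjusted p = 0.000574), and LPIN3, a phosphatidate phosphatase, fell by 1.06 (adjusted p = 0.00145). Of 5 tested genes of mitochondrial fatty acid synthesis, 0 were higher and 1, CBR4, was lower, by 0.58 (adjusted p = 0.00282; list median -0.21). For AMP-activated kinase, which phosphorylates the carboxylases, 2 of 7 tested genes were higher and 0 lower (median 0.18). These were the catalytic subunit PRKAA2, at 0.71 (adjusted p = 0.00259), and the regulatory subunit PRKAG2, at 0.99 (adjusted p = 0.000283). In the list of mitochondrial fatty acid oxidation, 2 of 16 tested genes were higher and 4 lower (median -0.04). ACADVL, the very-long-chain acyl-CoA dehydrogenase, rose by 0.63 and the dehydrogenase HADH fell by 0.79 (adjusted p = 0.00152 and 0.00349).

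**Figure D5:**
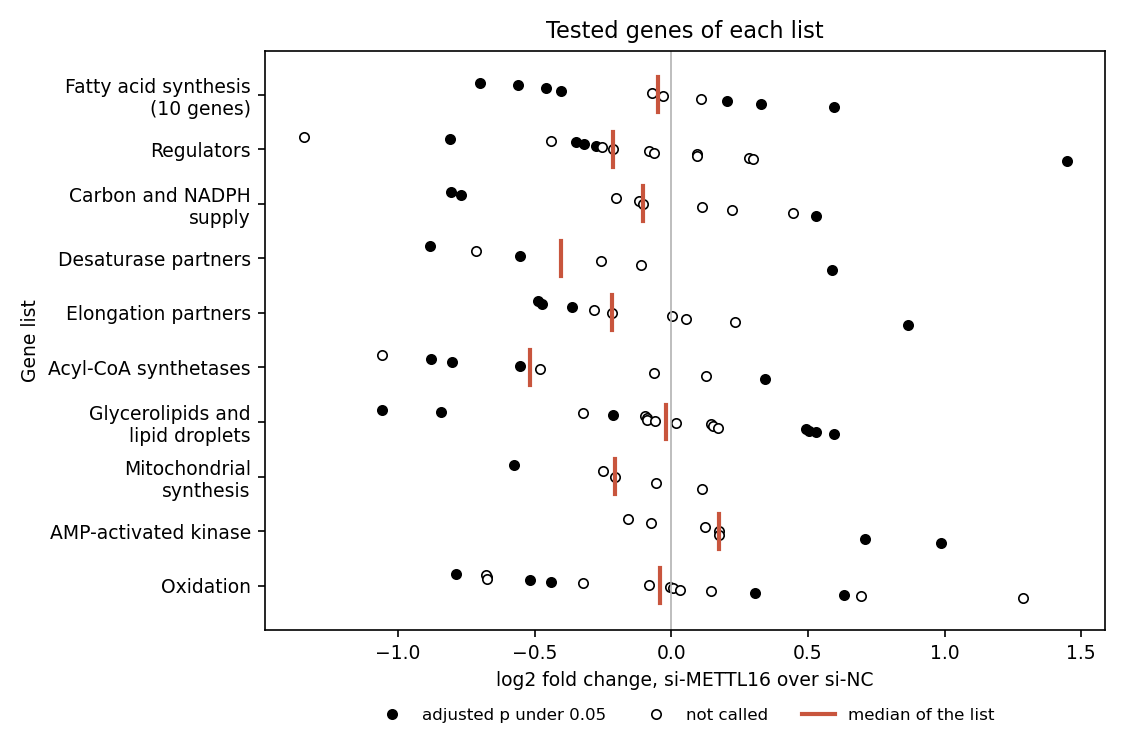
Log2 fold change (x axis, si-METTL16 over si-NC) of every tested gene of each list (y axis), with filled points for an adjusted p under 0.05, open points for the rest and a vertical line at the median of the list. The medians lie between -0.52 (acyl-CoA synthetases) and 0.18 (AMP-activated kinase), and INSIG1 is the rightmost point of the regulators at 1.45.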

How the data were processed

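RNA-seq was analysed in 6 samples of PANC-1 cells, 3 per group, grouped by the sample labels. The libraries were made with the SMARTER mRNA-Seq kit. The submitters' processing notes name HISAT2 2.0.4, StringTie 1.3.0 and hg38 (GRCh38), while the annotation and the use of strand are not given in the sources used here. The authors deposited raw read counts per gene and, beside them, FPKM values, in which counts are divided by gene length and library size. Total counts per sample ran from 15725298 to 18054436. The gene length implied by count, FPKM and total count differed between samples by at most 0.000873%, among genes well counted in every sample. In 27 rows a date stood in place of the symbol, which was restored from the gene identifier. No samples were duplicated: the chi-square per degree of freedom between replicates was between 14.7 and 18.1.

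The study's methods name limma for differential expression. Because raw counts were deposited, they were tested here with edgeR 4.0.16 in R 4.3.3 (filterByExpr with a minimum count of 10 and a minimum total of 15, TMM scaling, glmQLFit and glmQLFTest, no covariates), all samples in 1 fit of 15089 genes adjusted by Benjamini-Hochberg and called under 0.05. CPM are TMM-scaled, and SDs are over 3 samples. Tests on 3 samples per group measure the spread between these samples. The script was tested on simulated counts. Alternatives were a replicate block, each sample left out, no filter, at least 10 counts in every sample, DESeq2 1.42.0 size factors, the DESeq2 Wald test, limma 3.58.1 with voom, limma on log2(FPKM + 1) and log2(FPKM + 0.1) where the mean FPKM reached 1, and a threshold of 0.01. The numbering of replicates was not used as a pairing in the main fit. Same-numbered samples correlated at between 0.0253 and 0.0371 in their deviations, under the limit of 0.1. Samples with different numbers correlated at between -0.0388 and 0.00827. Such weak correlations cannot show that the samples were unpaired.

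Named genes are the 10 members, METTL16, SREBF1, SCAP, INSIG1, MLXIPL, NR1H2 and NR1H3, the called gene with the largest rise and the largest fall in each pathway list, and the 5 genes most like SCD. 1 named gene is not reported here. The members and the lists were chosen with earlier results of these data known. Promoter windows are from RefSeq (GRCh38.p14), and overlaps and reference transcripts from GENCODE v44.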

Additional observations from a re-analysis of the deposited data

How the results depend on the processing

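SCD, SCD5, ACACA and ELOVL6 kept their direction and their call in all 14 alternatives, and ACLY and ELOVL5 in 13, while FASN, FADS1 and FADS2 were called in none of 14. ACACB was called in 6 of 12, with adjusted p between 0.0325 and 0.108. Leaving out each sample gave between 4 and 7 called members, the 4 without si-NC replicate 3, and between 4159 and 4526 called genes. It moved FASN from -0.17 to 0.059 and FADS2 from -0.20 to 0.056 on the log2 scale. At an adjusted p under 0.01, 2 members (SCD and ACACA) and 3035 genes were called. With the replicate block, 5013 genes were called, of which 4731 were among the 5418 of the fit without it, with 7 members and 33 of the pathway genes (35 without it). Among the named genes, the block ended the call of SLC27A1 (adjusted p = 0.0546) and changed no other call. Same-numbered samples were no proven pairs, although each sample's deviations correlated best with those of its own number, which is a hint from the data and not from the design. The other alternatives called between 4506 and 5487 genes. SREBF1 was called in 3 of 14 alternatives (adjusted p between 0.0454 and 0.139) and MLXIPL in 2 of 11. The ranks by MANE length, chosen after seeing the data, moved FASN from 4 to 6, ACLY from 3 to 5, FADS1 from 6 to 4 and FADS2 from 5 to 3. They moved the mean SCD to SCD5 ratio in si-NC from 1011 to 660 and that of SCD to FASN from 52.8 to 34.6. Low counts limit SCD5 (at most 217 in a sample) and ACACB (at most 177). Among the other named genes, they also limit SLC27A1 (at most 156), ELOVL7 (at most 218) and LPIN3 (at most 251).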
